A study of Rattus norvegicus with 84 samples.

Results

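The corticosteroid system was followed through the nucleus accumbens of the rat after cocaine abstinence in 9 genes: the receptor genes Nr3c1 and Nr3c2, and Fkbp5, Sgk1, Tsc22d3, Zbtb16, Ddit4, Pdk4 and Cdkn1a, which glucocorticoids are known to induce in many tissues. The genes were picked by name, as 9 of the 41919 rows of the deposited count table, and all 9 were found. They are described over 84 libraries, in 12 groups of 7. All animals were wild-type Long-Evans rats. The tissue was the Shell or the Core of the accumbens, and each was sampled under 3 conditions, Ext, Ctx and HC, with the drug given as Coc or Sal. The groups are therefore Ext_Coc, Ext_Sal, Ctx_Coc, Ctx_Sal, HC_Coc and HC_Sal in Shell, and the same 6 in Core. The study compares withdrawal with extinction, and the labels spell out none of these abbreviations. The labels give no age, sex, drug dose, length of abstinence or time of day, and do not state whether each library is from an animal of its own. The p-values below therefore rest on the variation among these libraries, which may be technical.

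Corticosterone, the main glucocorticoid of the rat, enters cells and binds 2 receptors. Nr3c2 encodes the mineralocorticoid receptor, which has the higher affinity, and Nr3c1 the glucocorticoid receptor, which fills when hormone is high, as in stress or at the daily peak. The bound receptor moves to the nucleus and raises or lowers transcription. Among its targets, Fkbp5 encodes a co-chaperone that lowers the affinity of the receptor for hormone and so closes a feedback loop, Tsc22d3 encodes GILZ, a mediator of anti-inflammatory effects, and Sgk1 encodes a kinase that acts on ion channels and transporters. In the accumbens, glucocorticoid receptors are known for their influence on dopamine signalling and on the response to cocaine.

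Total RNA was sequenced, so unspliced transcripts were counted with mature ones. Library totals lay between 13.6 M and 22.5 M counts. As a measure of reads that do not come from active genes, counts scaled to library size (CPM) were summed over 2033 genes of olfactory and vomeronasal receptors, whose transcription is largely limited to the nose. This background level had a median of 1001 CPM in Shell libraries (97.5 to 2397) and 1015 CPM in Core libraries (72.4 to 4395). The highest value belonged to library 17-F of Core Ctx_Coc, which stands apart from all others. Several results that rest on it are given with and without it. Unless its absence is stated, it was included. Library names fall into numbered series, 3 and 4 in Shell and 1 and 2 in Core, and a series F that holds both subregions. Each group has 2 libraries of the first of its numbered series, 3 of the second and 2 of series F, so drug and condition are balanced over series, whereas the numbered series and the subregion cannot be told apart.

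Start-site sequences are shown because 8 of the 9 genes were called lower in Shell than in Core over all 84 libraries. RefSeq promoter windows (build GRCr8, 250 bases before to 50 after a start site) were found for 7 genes with 12 start sites. Nr3c2 and Zbtb16 had no entry. The 4 windows below are those of Fkbp5 and Cdkn1a, which with Sgk1 had the most Shell libraries below the Core mean, and of the start sites of Sgk1 and Tsc22d3 where the letters TATAAA or their reverse complement TTTATA, given in capitals, lie nearest the start. They lie on chr20:6543506-6543805 (minus strand) for Fkbp5, chr20:7150682-7150981 (plus strand) for Cdkn1a, chr1:24804782-24805081 (minus strand) for Sgk1 and chrX:109009985-109010284 (minus strand) for Tsc22d3, and each is written 5′ to 3′ on the strand of its gene.
Fkbp5: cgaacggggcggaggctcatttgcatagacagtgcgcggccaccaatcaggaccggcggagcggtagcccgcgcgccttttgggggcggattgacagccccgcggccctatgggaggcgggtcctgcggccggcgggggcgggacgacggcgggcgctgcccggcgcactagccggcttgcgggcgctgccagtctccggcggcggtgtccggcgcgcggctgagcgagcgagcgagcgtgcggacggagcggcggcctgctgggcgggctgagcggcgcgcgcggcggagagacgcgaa
Cdkn1a: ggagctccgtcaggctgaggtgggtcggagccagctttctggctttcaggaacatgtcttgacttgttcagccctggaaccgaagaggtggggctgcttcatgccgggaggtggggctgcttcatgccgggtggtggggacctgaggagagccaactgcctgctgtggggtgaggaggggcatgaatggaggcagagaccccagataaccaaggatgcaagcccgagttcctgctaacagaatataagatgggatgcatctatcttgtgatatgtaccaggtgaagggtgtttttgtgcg
Sgk1: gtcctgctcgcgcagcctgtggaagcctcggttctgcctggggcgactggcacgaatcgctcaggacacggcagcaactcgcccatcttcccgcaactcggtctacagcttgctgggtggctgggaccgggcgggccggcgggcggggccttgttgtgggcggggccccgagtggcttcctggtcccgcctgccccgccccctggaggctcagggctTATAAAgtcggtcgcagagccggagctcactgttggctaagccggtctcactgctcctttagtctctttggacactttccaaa
Tsc22d3: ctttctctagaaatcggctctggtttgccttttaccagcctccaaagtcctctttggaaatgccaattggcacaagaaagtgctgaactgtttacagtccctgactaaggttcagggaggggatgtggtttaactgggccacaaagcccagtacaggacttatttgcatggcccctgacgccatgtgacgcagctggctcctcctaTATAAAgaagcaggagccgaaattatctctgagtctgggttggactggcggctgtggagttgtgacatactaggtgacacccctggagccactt

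The glucocorticoid response element in its full form, AGAACA and TGTTCT with 3 bases between them, on either strand, occurred in 0 of the 12 windows and in 5 of 33469 windows of all rat genes (0.0149%). Its single arm, AGAACA or TGTTCT, also occurred in 0 of the 12, against 20.7% of all windows. TATAAA on either strand occurred in 3 of the 12 windows, 2 of Sgk1 and 1 of Tsc22d3, against 14.2% of all windows. In the printed Sgk1 window it begins 33 bases before the start site, in the other Sgk1 window 55 bases before it, and in the printed Tsc22d3 window 44 bases before it. These are letter matches within 300 bases only, and a full element is so rare that 0 of 12 says nothing about these genes.

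Per length, Ddit4 had the highest level of the 9 genes. The authors' FPKM values divide by 1 length per gene that spans introns as well as exons (2100 bases for Ddit4, 344238 for Nr3c2). On that scale the median of Ddit4 was 6.16 FPKM in Shell and 7.44 FPKM in Core. Sgk1 followed with 0.796 FPKM in Shell and 1.00 FPKM in Core, then Nr3c1 with 0.646 in Shell and 0.715 in Core. The mineralocorticoid receptor gene Nr3c2 had 0.546 FPKM in Shell and 0.502 in Core, below the glucocorticoid receptor gene in both. Since these lengths include introns, the order of the genes on this scale need not be that of mature transcripts. Pdk4 and Cdkn1a had 0.400 and 0.367 FPKM in Shell, the lowest medians there, and 0.489 and 0.515 FPKM in Core. They also had the fewest counts, with medians of 67.5 and 66.5 counts in Shell and 82 and 86 in Core. Nr3c2 had the most, with medians of 3203.5 counts in Shell and 2883.5 in Core. All other values below are log2 CPM, or differences of them, for 1 gene at a time.

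**Figure D1:**
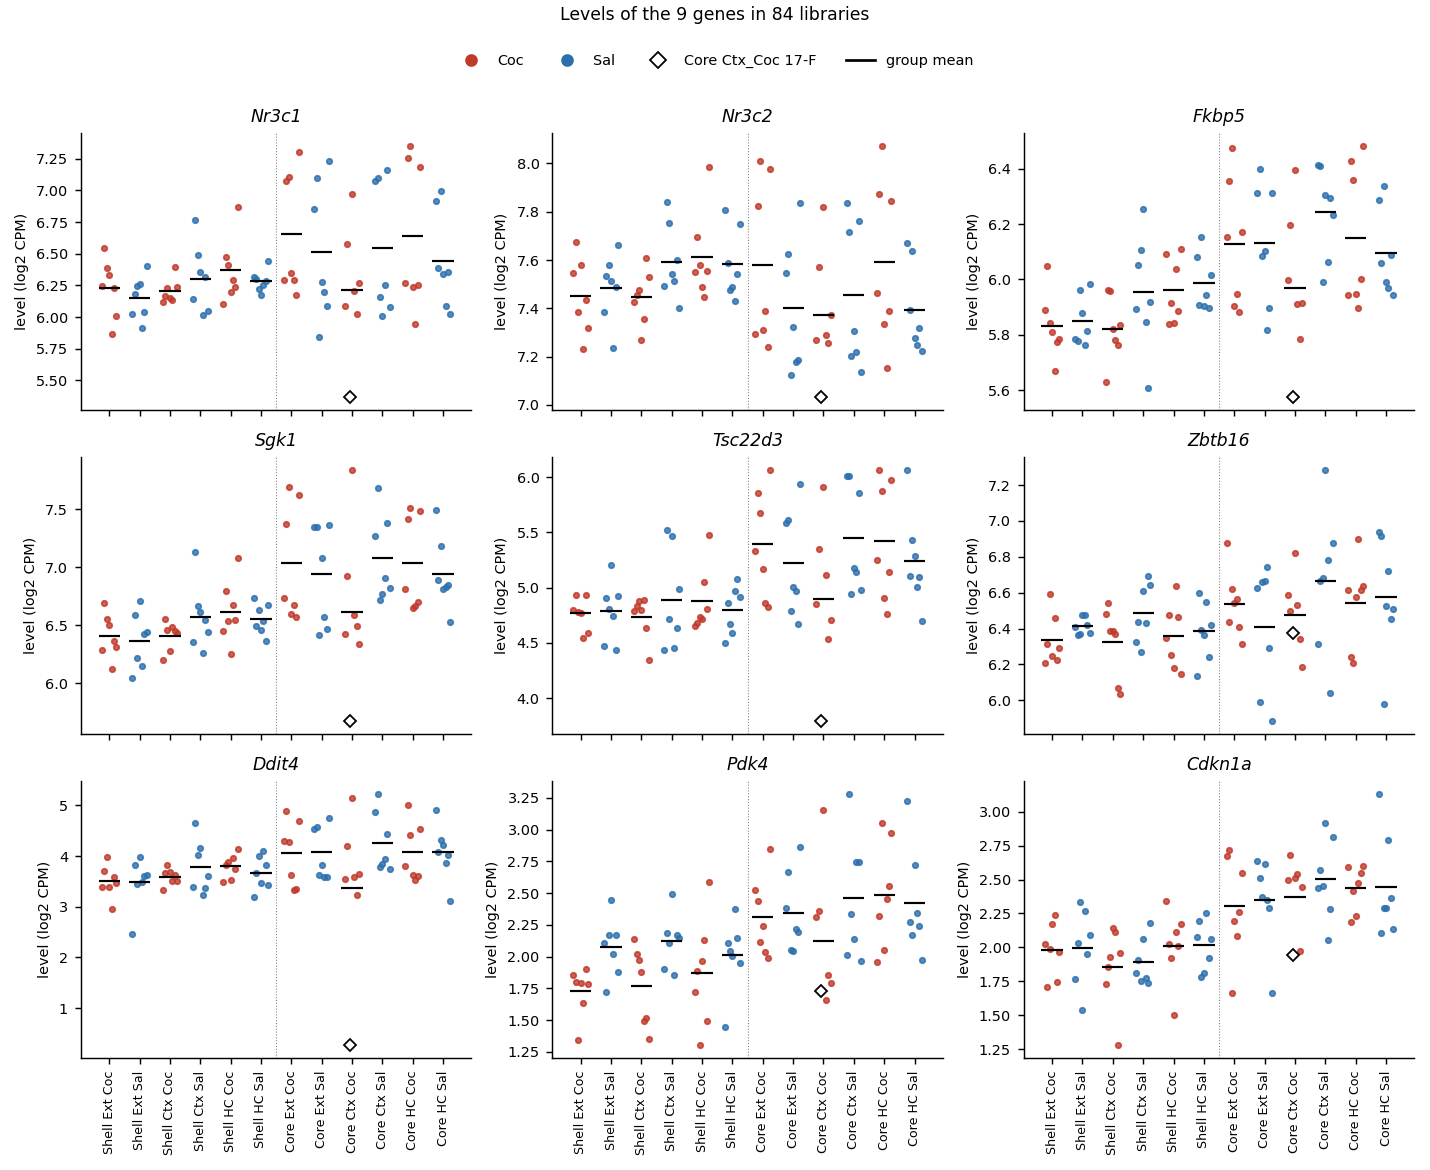
Level of each gene (vertical axis, log2 CPM) in each of the 84 libraries by group (horizontal axis, Shell left of the dotted line and Core right of it), with Coc libraries in red, Sal libraries in blue and the group mean as a bar. The Core groups sit above the Shell groups for most genes and spread more widely, and the open diamond marks library 17-F, at 0.26 log2 CPM for Ddit4.

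Over all 84 libraries, before the background level was fitted or matched, Shell levels of 8 of the 9 genes were lower than Core levels. Fits with the background level fitted or matched, and series F alone, called fewer members lower and follow below. The differences ran from 1.12-fold (Zbtb16) to 1.43-fold (Tsc22d3) lower in Shell, and Nr3c2 alone showed no called difference. In the fit over all 84 libraries (edgeR's quasi-likelihood F test, Benjamini-Hochberg adjustment over 32145 genes, threshold 0.05), 8 of 9 were called lower and 0 higher in Shell, where 8.77% of all tested genes were called lower and 4.56% higher. DESeq2 also called 8 lower, where it called 9.92% of all genes lower and 4.35% higher. Without library 17-F edgeR again called 8 lower, with 13.7% of all genes lower and 12.6% higher. The median difference over all genes was 0.046 on the log2 scale. The members were chosen with earlier results of these data known. Many are also correlated with each other, so the 8 calls are not 8 separate observations. In tissue pieces, fewer cells of a type and less RNA per cell cannot be told apart.

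The background level ran lower in many Core libraries. Once it was fitted or matched, some of these differences changed in size and others changed little. A pair of fits bears on this: the first adds the background level as a covariate, and the second, chosen after seeing the data, sets the 18 libraries of Shell series 4 against the 18 of Core series 2, whose background levels are alike (median 1159 CPM, 735 to 1709, in Shell series 4 and 1246 CPM, 575 to 1562, in Core series 2). In each of them 6 members were called lower in Shell and 1 higher. With the covariate 11.8% of all genes were called lower and 29.5% higher, and between the matched series 16.2% were called lower and 18.2% higher. The 6 were Fkbp5, Sgk1, Tsc22d3, Zbtb16, Pdk4 and Cdkn1a, and the gene called higher was Nr3c2. Nr3c1 and Ddit4 were not called in either. In a further fit with the covariate and a block for shared library numbers, over the numbered series alone, Ddit4 was called lower as well (-0.15, adjusted p = 0.00952) and Nr3c1 was not (-0.08, adjusted p = 0.0728), where 18.3% of all genes were called lower and 21.6% higher.

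**Figure D2:**
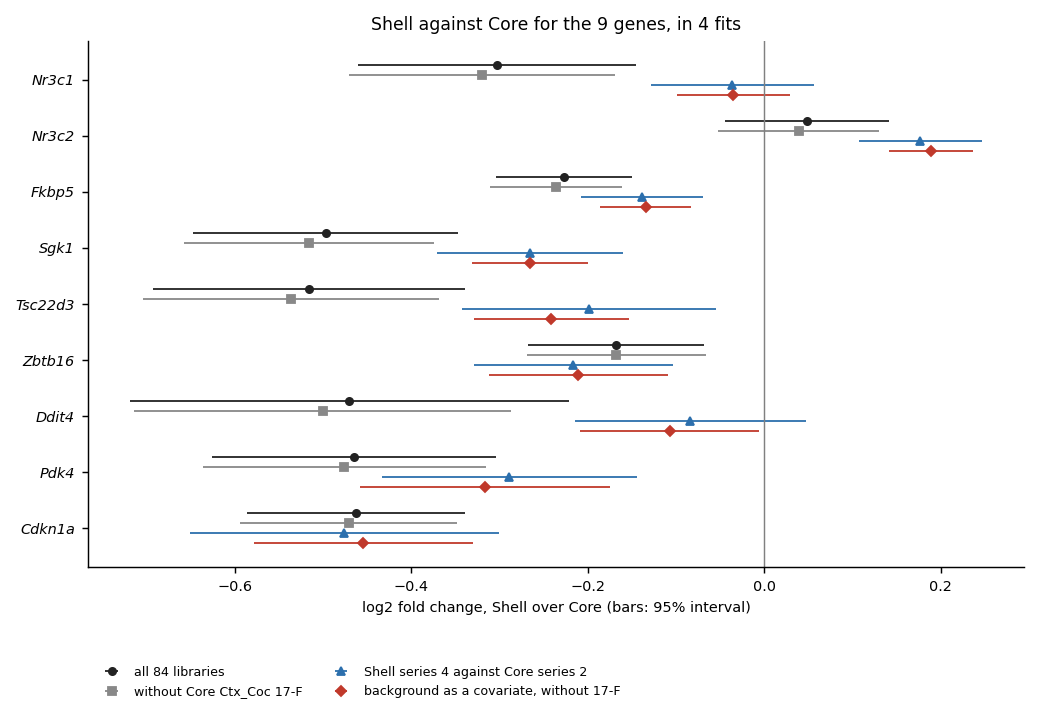
Log2 fold change of Shell over Core for each gene (horizontal axis, bars are 95% intervals) in 4 fits: all 84 libraries, without library 17-F, Shell series 4 against Core series 2, and the background covariate without 17-F. Cdkn1a stays between -0.48 and -0.45 in these 4, while Nr3c1 moves to near 0 once the background level is matched or fitted. Nr3c2 is at 0.05 and 0.04 in the first 2 fits and at 0.18 and 0.19 in the other 2.

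Nr3c1, the glucocorticoid receptor gene, had 5.87, 6.24 and 6.87 log2 CPM (lowest, median, highest) in the 42 Shell libraries, against 5.37, 6.29 and 7.35 in the 42 Core libraries. The ranges overlap throughout, and the Core libraries form a wider band that reaches higher. The log2 fold change of Shell over Core was -0.30 ± 0.08 (SE; adjusted p = 0.00465, edgeR), and 39 of 42 Shell libraries lay below the Core mean. With the background covariate it was -0.03 (adjusted p = 0.478), and between the matched series it was -0.04 with a 95% interval of -0.13 to 0.06 (adjusted p = 0.591). In those series the levels were 5.87, 6.21 and 6.40 in Shell and 5.95, 6.22 and 6.36 in Core, which lie on top of each other. By group, mean levels in Shell were 6.23 ± 0.23 in Ext_Coc, 6.15 ± 0.17 in Ext_Sal, 6.21 ± 0.10 in Ctx_Coc, 6.30 ± 0.27 in Ctx_Sal, 6.37 ± 0.26 in HC_Coc and 6.29 ± 0.09 in HC_Sal (log2 CPM, SD, n = 7 each). In Core they were 6.66 ± 0.48 in Ext_Coc, 6.51 ± 0.54 in Ext_Sal, 6.22 ± 0.50 in Ctx_Coc, 6.55 ± 0.53 in Ctx_Sal, 6.64 ± 0.59 in HC_Coc and 6.44 ± 0.38 in HC_Sal.

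Nr3c2, the mineralocorticoid receptor gene, was the exception among the 9. Its levels were 7.23, 7.52 and 7.99 log2 CPM in Shell, against 7.03, 7.35 and 8.07 in Core, and the Shell range lies inside the Core range. Over all libraries the log2 fold change was 0.05 ± 0.05 (adjusted p = 0.489, edgeR; 95% interval -0.05 to 0.14). With the background covariate Nr3c2 was 1.14-fold higher in Shell, at 0.18 ± 0.02 (adjusted p = 8.87e-10), and between the matched series it was 0.18 with an interval of 0.11 to 0.25 (adjusted p = 0.000297). There, 2 of the 18 Shell libraries lay below the Core median. Group means in Shell were 7.45 ± 0.16 in Ext_Coc, 7.48 ± 0.14 in Ext_Sal, 7.45 ± 0.11 in Ctx_Coc, 7.59 ± 0.15 in Ctx_Sal, 7.61 ± 0.18 in HC_Coc and 7.58 ± 0.14 in HC_Sal. Core means were 7.58 ± 0.34 in Ext_Coc, 7.40 ± 0.27 in Ext_Sal, 7.37 ± 0.25 in Ctx_Coc, 7.45 ± 0.30 in Ctx_Sal, 7.59 ± 0.34 in HC_Coc and 7.39 ± 0.18 in HC_Sal.

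Fkbp5, the co-chaperone of the feedback loop, had 5.61, 5.89 and 6.25 log2 CPM in Shell and 5.58, 6.09 and 6.48 in Core. Of the 42 Shell libraries, 40 lay below the Core mean and 10 below every Core library other than 17-F. Its log2 fold change was -0.23 ± 0.04 (adjusted p = 6.64e-06, edgeR). It was -0.13 with the covariate (adjusted p = 1.83e-05) and -0.14 between the matched series (adjusted p = 0.00281). The difference was thus smaller but called in these 2 fits. In series F with the covariate and without 17-F it was -0.18 and not called (adjusted p = 0.2, edgeR). Shell groups averaged 5.83 ± 0.12 in Ext_Coc, 5.85 ± 0.09 in Ext_Sal, 5.82 ± 0.12 in Ctx_Coc, 5.95 ± 0.21 in Ctx_Sal, 5.96 ± 0.12 in HC_Coc and 5.99 ± 0.10 in HC_Sal. The 6 Core groups averaged 6.13 ± 0.23 in Ext_Coc, 6.13 ± 0.22 in Ext_Sal, 5.97 ± 0.27 in Ctx_Coc, 6.24 ± 0.16 in Ctx_Sal, 6.15 ± 0.26 in HC_Coc and 6.10 ± 0.16 in HC_Sal.

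Sgk1, the kinase gene, showed the second largest difference on the log2 scale. Its levels were 6.04, 6.47 and 7.13 log2 CPM in Shell and 5.67, 6.83 and 7.84 in Core, with library 17-F the lowest in Core. The log2 fold change was -0.50 ± 0.08 (adjusted p = 4.51e-07, edgeR), a 1.41-fold lower level in Shell, and 40 of 42 Shell libraries lay below the Core mean. With the covariate it was -0.25 (adjusted p = 2.08e-09). Between the matched series the levels were 6.12, 6.44 and 6.71 in Shell and 6.34, 6.67 and 7.08 in Core, 16 of 18 Shell libraries lay below the Core median, and the log2 fold change was -0.27 (adjusted p = 0.00032). It was the sole member with neighbouring group means further apart than their pooled SD, 2 pairs of 11. Mean levels by group in Shell were 6.41 ± 0.19 in Ext_Coc, 6.37 ± 0.24 in Ext_Sal, 6.41 ± 0.12 in Ctx_Coc, 6.57 ± 0.28 in Ctx_Sal, 6.62 ± 0.26 in HC_Coc and 6.56 ± 0.13 in HC_Sal. Means of the Core groups were 7.04 ± 0.50 in Ext_Coc, 6.94 ± 0.44 in Ext_Sal, 6.61 ± 0.66 in Ctx_Coc, 7.08 ± 0.37 in Ctx_Sal, 7.03 ± 0.41 in HC_Coc and 6.94 ± 0.31 in HC_Sal.

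Tsc22d3, which encodes GILZ, had 4.34, 4.79 and 5.52 log2 CPM in Shell, against 3.79, 5.16 and 6.07 in Core. The highest Shell library stayed below the highest Core libraries, and 39 of 42 lay below the Core mean. On the log2 scale Shell over Core came to -0.52 ± 0.09 (adjusted p = 7.36e-06, edgeR), -0.23 with the covariate (adjusted p = 1.71e-05) and -0.20 between the matched series (adjusted p = 0.0351). Means of the Shell groups were 4.77 ± 0.15 in Ext_Coc, 4.78 ± 0.27 in Ext_Sal, 4.74 ± 0.19 in Ctx_Coc, 4.89 ± 0.46 in Ctx_Sal, 4.87 ± 0.30 in HC_Coc and 4.80 ± 0.22 in HC_Sal. In Core they were 5.40 ± 0.48 in Ext_Coc, 5.22 ± 0.48 in Ext_Sal, 4.89 ± 0.67 in Ctx_Coc, 5.45 ± 0.49 in Ctx_Sal, 5.43 ± 0.54 in HC_Coc and 5.24 ± 0.43 in HC_Sal.

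Zbtb16, a zinc finger transcription factor gene induced by glucocorticoids, had the smallest called difference. Its levels were 6.03, 6.39 and 6.69 log2 CPM in Shell and 5.88, 6.57 and 7.29 in Core. The log2 fold change was -0.17 ± 0.05 (adjusted p = 0.0165, edgeR), and it did not shrink with the covariate (-0.20, adjusted p = 0.000655) or between the matched series (-0.22, adjusted p = 0.0039). In the matched series 15 of 18 Shell libraries lay below the Core median. Group means in Shell were 6.34 ± 0.14 in Ext_Coc, 6.41 ± 0.05 in Ext_Sal, 6.32 ± 0.20 in Ctx_Coc, 6.49 ± 0.16 in Ctx_Sal, 6.36 ± 0.18 in HC_Coc and 6.39 ± 0.16 in HC_Sal. Core means were 6.54 ± 0.18 in Ext_Coc, 6.41 ± 0.36 in Ext_Sal, 6.48 ± 0.20 in Ctx_Coc, 6.66 ± 0.40 in Ctx_Sal, 6.54 ± 0.24 in HC_Coc and 6.58 ± 0.33 in HC_Sal.

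Ddit4, which encodes REDD1, an inhibitor of mTORC1 signalling, spread most. Its levels were 2.47, 3.62 and 4.66 log2 CPM in Shell, against 0.26, 3.90 and 5.23 in Core, where the lowest value is that of library 17-F and the next is 3.12. On the log2 scale Shell over Core came to -0.47 ± 0.13 (adjusted p = 0.00552, edgeR), -0.05 with the covariate (adjusted p = 0.56) and -0.08 between the matched series (95% interval -0.21 to 0.05, adjusted p = 0.349). With the covariate and without 17-F it was -0.11 (95% interval -0.21 to -0.0058, adjusted p = 0.0851, edgeR), also not called. Shell groups averaged 3.50 ± 0.32 in Ext_Coc, 3.49 ± 0.49 in Ext_Sal, 3.59 ± 0.16 in Ctx_Coc, 3.78 ± 0.52 in Ctx_Sal, 3.79 ± 0.23 in HC_Coc and 3.67 ± 0.33 in HC_Sal. The 6 Core groups averaged 4.06 ± 0.64 in Ext_Coc, 4.07 ± 0.53 in Ext_Sal, 3.37 ± 1.51 in Ctx_Coc, 4.26 ± 0.59 in Ctx_Sal, 4.08 ± 0.58 in HC_Coc and 4.08 ± 0.54 in HC_Sal, and the SD of Ctx_Coc is wide through 17-F.

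Pdk4, a mitochondrial kinase gene that holds back pyruvate oxidation, had 1.30, 1.95 and 2.59 log2 CPM in Shell and 1.66, 2.29 and 3.28 in Core. The log2 fold change was -0.47 ± 0.08 (adjusted p = 9.75e-06, edgeR), -0.32 with the covariate (adjusted p = 0.000111) and -0.29 between the matched series (adjusted p = 0.00287). Of 42 Shell libraries, 38 lay below the Core mean. Means of the Shell groups were 1.73 ± 0.19 in Ext_Coc, 2.07 ± 0.23 in Ext_Sal, 1.77 ± 0.31 in Ctx_Coc, 2.12 ± 0.21 in Ctx_Sal, 1.87 ± 0.42 in HC_Coc and 2.01 ± 0.28 in HC_Sal. Means of the Core groups were 2.31 ± 0.31 in Ext_Coc, 2.34 ± 0.31 in Ext_Sal, 2.12 ± 0.53 in Ctx_Coc, 2.46 ± 0.48 in Ctx_Sal, 2.48 ± 0.42 in HC_Coc and 2.42 ± 0.42 in HC_Sal.

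Cdkn1a, which encodes the cell cycle inhibitor p21, separated the subregions most evenly. Its levels were 1.28, 1.98 and 2.34 log2 CPM in Shell and 1.66, 2.44 and 3.13 in Core, and all 42 Shell libraries lay below the Core mean. On the log2 scale Shell over Core came to -0.46 ± 0.06 (adjusted p = 1.6e-08, edgeR), and it stayed near that size with the covariate (-0.44, adjusted p = 1.38e-08) and between the matched series (-0.48, adjusted p = 0.00014). In the matched series the levels were 1.28, 1.96 and 2.27 in Shell and 1.98, 2.36 and 2.91 in Core, and all 18 Shell libraries lay below the Core median. Group means in Shell were 1.98 ± 0.20 in Ext_Coc, 2.00 ± 0.28 in Ext_Sal, 1.86 ± 0.29 in Ctx_Coc, 1.89 ± 0.17 in Ctx_Sal, 2.01 ± 0.26 in HC_Coc and 2.01 ± 0.18 in HC_Sal. In Core they were 2.30 ± 0.37 in Ext_Coc, 2.35 ± 0.33 in Ext_Sal, 2.37 ± 0.29 in Ctx_Coc, 2.50 ± 0.30 in Ctx_Sal, 2.43 ± 0.17 in HC_Coc and 2.44 ± 0.38 in HC_Sal.

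Ordered by mean level, the highest of the 12 groups was a Core group for every member but Nr3c2. It was Core Ctx_Sal for Fkbp5, Sgk1, Tsc22d3, Zbtb16, Ddit4 and Cdkn1a, Core Ext_Coc for Nr3c1 and Core HC_Coc for Pdk4, whereas Nr3c2 was highest in Shell HC_Coc. The lowest was Shell Ctx_Coc for Fkbp5, Tsc22d3, Zbtb16 and Cdkn1a, Shell Ext_Sal for Nr3c1 and Sgk1 and Shell Ext_Coc for Pdk4, whereas Ddit4 and Nr3c2 were lowest in Core Ctx_Coc, the group of library 17-F. Without 17-F, Core Ctx_Coc averaged 3.89 ± 0.69 for Ddit4 and 7.43 ± 0.22 for Nr3c2 (log2 CPM, SD, n = 6), and the lowest groups were Shell Ext_Sal for Ddit4 (3.49) and Core HC_Sal for Nr3c2 (7.39). From lowest to highest the group means spanned 0.24 (Nr3c2) to 0.89 (Ddit4) on the log2 scale, and 0.22 (Nr3c2) to 0.77 (Ddit4) without 17-F. Neighbours in this order lay within their pooled SD for all members but Sgk1.

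Series F is the only one that holds both subregions, with 12 libraries of each. Taken alone it called 0 of 9 members (edgeR, adjusted p under 0.05; 4 had an unadjusted p under 0.05), where 0.176% of all genes were called lower and 0.0506% higher. The estimates were as large as over all libraries or larger for 6 members, at -0.66 for Ddit4, -0.65 for Sgk1, -0.64 for Tsc22d3, -0.56 for Pdk4, -0.46 for Nr3c1 and -0.27 for Fkbp5, with SEs of 0.12 to 0.39. Without library 17-F it called Sgk1 alone, at -0.77 (adjusted p = 0.0364), where 1.22% of all genes were called lower and 0.876% higher. Within series F the background level had a median of 893 CPM in Shell and 171 CPM in Core.

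Library by library, the levels of 6 members fell off as the background level went up. Over the 42 Shell libraries and the 41 Core libraries other than 17-F, Pearson's r of log2 CPM with the log2 background level was -0.87 in Shell and -0.94 in Core for Nr3c1. It was -0.87 and -0.91 for Sgk1, -0.74 and -0.94 for Nr3c2, -0.68 and -0.91 for Tsc22d3, -0.68 and -0.87 for Ddit4 and -0.57 and -0.89 for Fkbp5, again Shell first and Core second. Pdk4 lay lower, at -0.25 in Shell and -0.58 in Core. Zbtb16 and Cdkn1a showed little of it, at 0.11 and -0.13 in Shell and 0.37 and 0.08 in Core. These are descriptions over libraries that share their scaling. Suppose reads fell on each gene's span at the rate seen on the receptor genes. They would then make up a median of 3.04% of the Ddit4 counts in Shell and 2.30% in Core. The highest median of any member would be 48.9% in Shell (Pdk4) and 35.9% in Core (Nr3c2). In single libraries the share would reach 92.5% in Shell (Cdkn1a) and, without 17-F, 61.0% in Core (Pdk4). In library 17-F that share would run from 72.3% for Ddit4 to 164% for Tsc22d3.

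**Figure D3:**
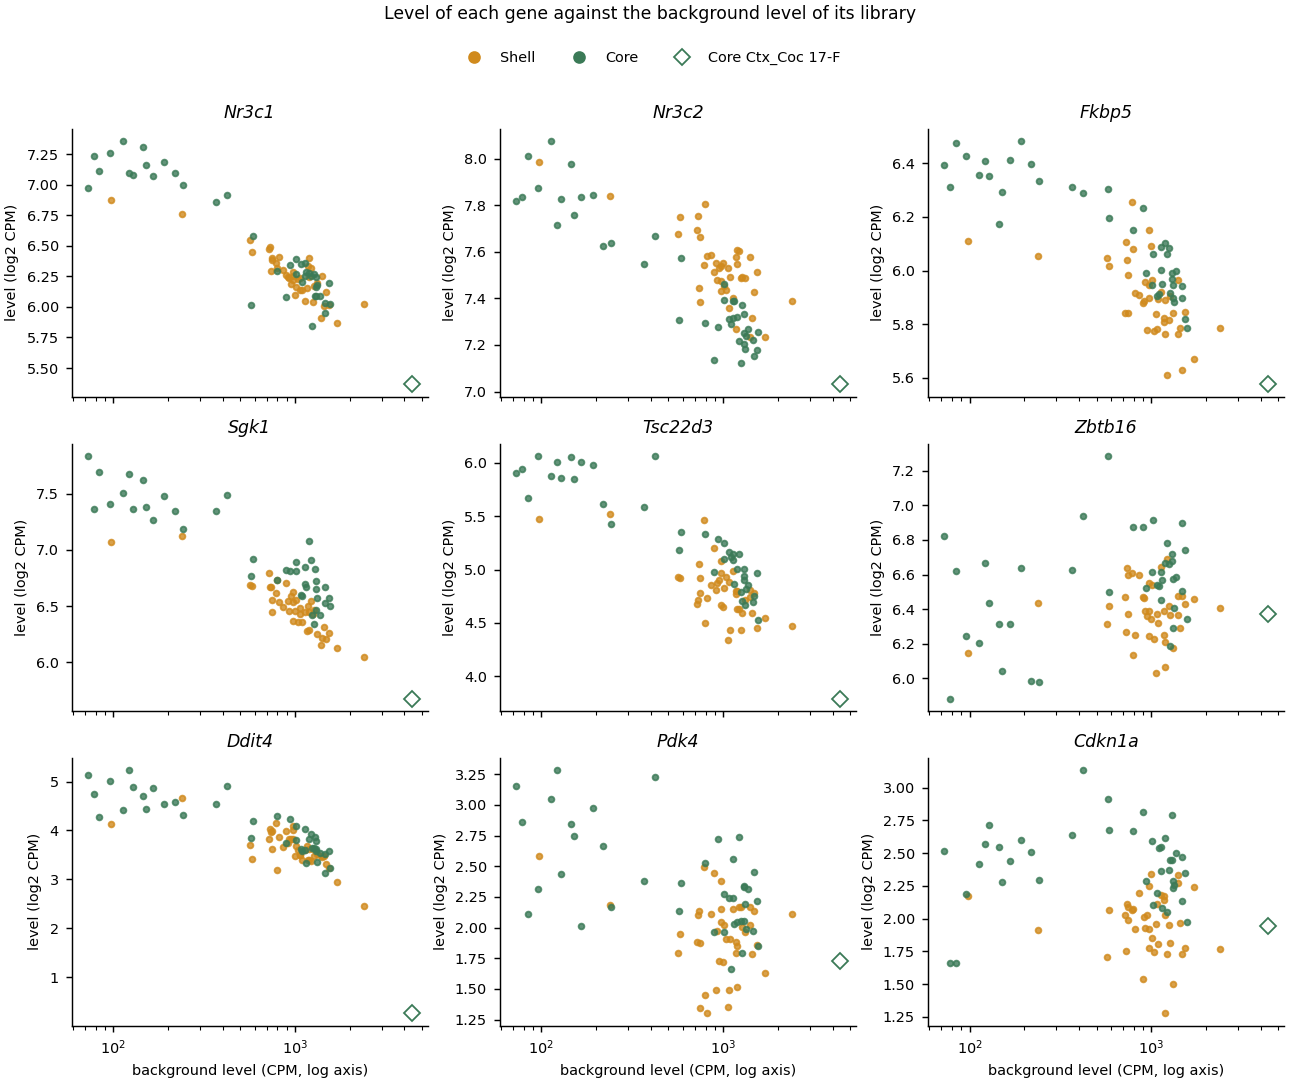
Level of each gene (vertical axis, log2 CPM) against the background level of its library (horizontal axis, CPM summed over 2033 silent receptor genes, log scale), with Shell in orange and Core in green. Nr3c1 and Ddit4 libraries of both subregions fall along a shared band, while Cdkn1a libraries of Shell lie under those of Core at like background, and the open diamond is library 17-F at 4395 CPM.

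Markers of other cells moved with the subregion as well, in the fit that called 8.77% of all genes lower and 4.56% higher. That fit did not include the background level. All 8 oligodendrocyte markers were lower in Shell (median log2 fold change -1.75), and their summed level was 732 to 1522 CPM (median 1134) in Shell and 1733 to 5913 CPM (median 3463) in Core without 17-F. Of the other lists, 5 of 6 microglial, 2 of 7 astrocyte, 1 of 6 endothelial and 3 of 8 striatal neuron markers were called lower in Shell, while 1 of 7 mural and 1 of 5 choroid plexus markers were called higher. Of 4 blood and 5 cortical neuron markers 0 were called. The striatal neuron markers, which define the tissue, summed to 1244 to 3136 CPM in Shell and 1528 to 3243 CPM in Core without 17-F. After group, series and background level were removed, Tsc22d3 had an r of 0.70 with the oligodendrocyte sum over 83 libraries. That was the highest r with this sum among the members. Ddit4 followed at 0.45, and the rest lay between -0.01 (Nr3c2) and 0.29 (Nr3c1). The part of these cells in the subregion differences was not tested.

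Coc against Sal was compared in each condition and on average within each subregion, which asks whether a history of cocaine left the corticosteroid genes at another level. No member was called in any of these comparisons. Including the comparisons between conditions and those of the drug effect across conditions and subregions, 25 comparisons gave 225 member estimates, of which 0 passed an adjusted p of 0.05 (edgeR; smallest 0.294) and 8 (3.56%) had an unadjusted p under 0.05, as did 4.02% of the estimates of all genes. DESeq2 called 0 of them too. In each of these comparisons edgeR called 0.0% of all genes.

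**Figure D4:**
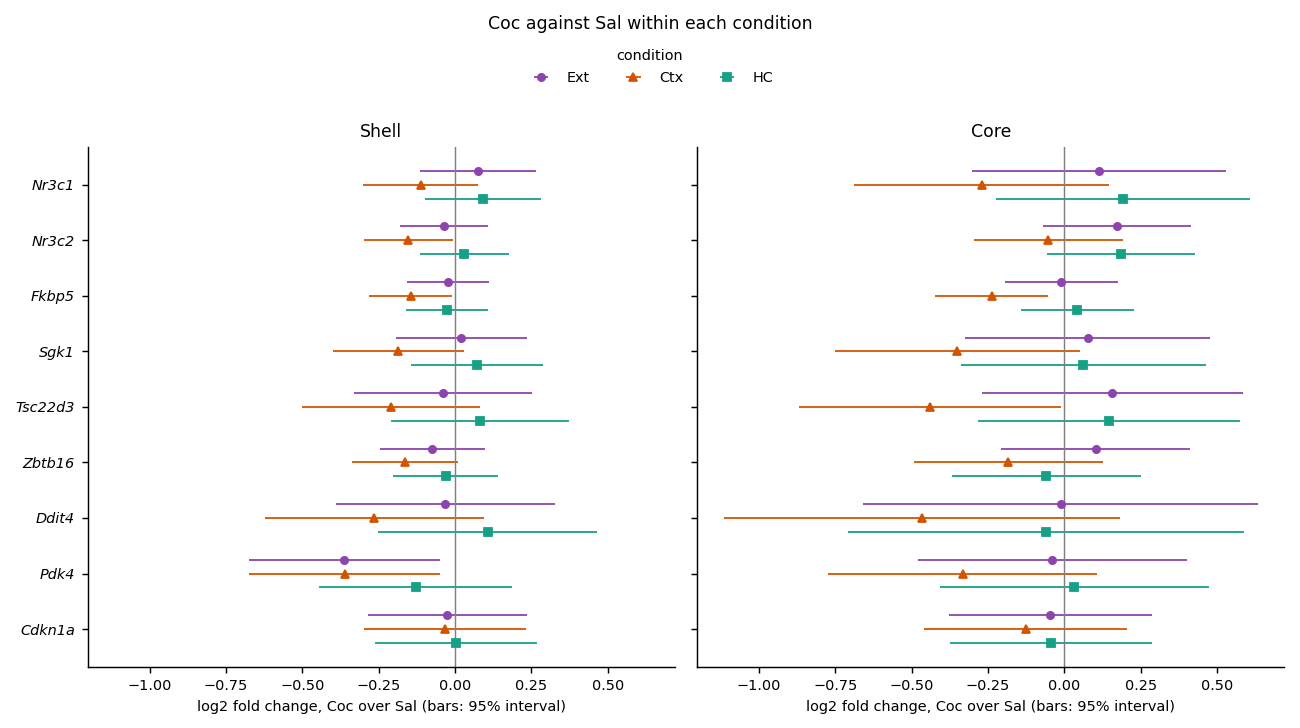
Log2 fold change of Coc over Sal (horizontal axis, bars are 95% intervals) for each gene in Shell and in Core, by condition. The estimates of Ctx lie to the left of 0 for every gene, from -0.36 to -0.03 in Shell and from -0.47 to -0.05 in Core, and those of Ext and HC lie on both sides.

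Pdk4 had the lowest unadjusted p of the drug comparisons in Shell, in the average over conditions. That log2 fold change was -0.28 ± 0.09 (SE; unadjusted p = 0.00387, adjusted p = 1.00, edgeR), and 18 of 21 Coc libraries lay below the Sal mean. In Ext its levels were 1.35, 1.79 and 1.90 log2 CPM in Ext_Coc, against 1.72, 2.11 and 2.45 in Ext_Sal, and the ranges overlap although all 7 Coc libraries lay below the Sal mean. In Ctx they were 1.35, 1.88 and 2.14 in Ctx_Coc and 1.86, 2.15 and 2.49 in Ctx_Sal, with 6 of 7 Coc libraries below the Sal mean. In HC they were 1.30, 1.88 and 2.59 in HC_Coc and 1.45, 2.05 and 2.38 in HC_Sal. By condition the log2 fold changes were -0.36 in Ext (unadjusted p = 0.0284, adjusted p = 0.998, edgeR), -0.36 in Ctx (unadjusted p = 0.0297, adjusted p = 0.731) and -0.13 in HC, none past the adjusted threshold. In Core they were -0.04 in Ext, -0.33 in Ctx and 0.03 in HC, and the test of the drug effect in Shell minus that in Core gave -0.17 ± 0.16, also not called.

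In Core the lowest unadjusted p was that of Fkbp5 in Ctx. Its levels were 5.58, 5.92 and 6.39 log2 CPM in Core Ctx_Coc, against 5.99, 6.29 and 6.41 in Core Ctx_Sal. Of the 7 Coc libraries 6 lay below the Sal mean, and 4 lay below every Sal library. The log2 fold change was -0.24 ± 0.09 (unadjusted p = 0.0164, adjusted p = 0.433, edgeR), and it was -0.17 without library 17-F (unadjusted p = 0.0549). In Shell Ctx it was -0.15 ± 0.07 (unadjusted p = 0.0412, adjusted p = 0.731), and the estimates in Ext and HC lay between -0.03 and 0.04 in both subregions.

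In Ctx, all 9 estimates of Coc over Sal were below 0 in Shell (median -0.16) and all 9 in Core (median -0.27), whereas the median over all genes was 0.0059 in Shell and 0.03 in Core. The members are correlated with each other, so these 9 are not 9 separate observations. In Core, library 17-F carries part of it: Ddit4 was at -0.26 without it and -0.47 with it, Nr3c1 at -0.14 without and -0.27 with it, Tsc22d3 at -0.30 without and -0.44 with it, and Sgk1 at -0.22 without and -0.35 with it. Without it 8 of 9 were below 0 (median -0.19, all genes -0.07). With the background covariate all 9 stayed below 0 in Shell (median -0.07, all genes -0.01) and 7 of 9 in Core (median -0.14, all genes -0.13). The background level had a median of 1266 CPM in Core Ctx_Coc and 575 CPM in Core Ctx_Sal, and of 1071 CPM in Shell Ctx_Coc and 1086 CPM in Shell Ctx_Sal. Its part in these estimates beyond the covariate was not tested. The drug effect in Ctx minus that in HC, the test of the difference itself, called no member in either subregion. The lowest unadjusted p there was that of Fkbp5 in Core, at -0.28 ± 0.13 (unadjusted p = 0.0428, adjusted p = 0.351, edgeR).

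What the design could have shown is read from the intervals. The 95% intervals of the 3 within-condition drug comparisons reached from -0.68 to 0.47 in Shell over all members and from -1.12 to 0.63 in Core. The Core intervals and SEs include library 17-F. With it the SD of Ddit4 in Core Ctx_Coc was 1.51, against 0.69 without it. For Fkbp5, the most tightly measured, 1 SE was 0.07 in Shell and 0.09 in Core, and for Ddit4, the least, 0.18 and 0.33. A fall of Fkbp5 by 0.23, the size of its subregion difference, lies outside its intervals in Ext and HC in both subregions and inside those in Ctx.

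Between conditions the members again gave no call. Ext over HC within Coc ran from -0.28 to -0.01 in Shell and from -0.21 to 0.02 in Core, and within Sal from -0.16 to 0.07 in Shell and from -0.17 to 0.07 in Core. Ctx over HC within Coc ran from -0.21 to -0.02 in Shell and from -0.43 to -0.04 in Core, and within Sal from -0.12 to 0.16 in Shell and from 0.03 to 0.16 in Core. Ext over Ctx ran from -0.07 to 0.13 in Shell and from -0.08 to 0.39 in Core within Coc, and from -0.30 to 0.12 in Shell and from -0.25 to -0.01 in Core within Sal. These comparisons share groups with each other and with those of the drug. The estimate with the lowest unadjusted p was Nr3c2 in Shell, -0.16 for Ctx over HC within Coc (unadjusted p = 0.0363, adjusted p = 0.294, edgeR).

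Beyond the 9 members, 3 lists give the rest of the pathway. Of 12 genes of the receptor machinery (heat shock chaperones, steroid-converting enzymes, coregulators), 1 was called higher and 0 lower in Shell than in Core: Hsd11b1, which encodes the enzyme that regenerates active corticosterone, at 0.16 (adjusted p = 0.0473, edgeR), where 4.56% of all genes were called higher and 8.77% lower. DESeq2 did not call Hsd11b1 (adjusted p = 0.165), and it was at -0.02 between the matched series. The median of the list was -0.18. With the background covariate the median was 0.17, and 7 were called higher and 0 lower, where 29.5% of all genes were called higher and 11.8% lower. The sign of the list's median thus turned with the covariate.

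Of 19 other response genes, 5 were called lower and 1 higher in Shell (median -0.25), against 8.77% and 4.56% of all genes. With the covariate 3 were called lower and 6 higher (median 0.06), so the sign of this median turned too. The lower ones were the arrestin domain gene Arrdc2 at -0.92 ± 0.12, the lipid droplet gene Plin4 at -0.77 ± 0.08, the transcription factor gene Cebpb at -0.58 ± 0.16, the small GTPase gene Rhob at -0.54 ± 0.14 and the transcription factor gene Klf15 at -0.32 ± 0.09. The gene called higher was Gjb6, a gap junction gene of astrocytes, at 0.60 ± 0.11. Between the matched series Arrdc2 (-0.56), Plin4 (-0.65) and Gjb6 (0.61) were still called, and Cebpb (-0.17), Rhob (-0.08) and Klf15 (-0.02) were not.

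Of 8 stress axis genes, Crh (0.42), the CRH-binding protein gene Crhbp (0.31) and the receptor gene Crhr1 (0.22) were called higher in Shell, and the melanocortin receptor gene Mc4r (-0.57) lower, against 4.56% of all genes called higher and 8.77% lower. Between the matched series none of the 4 was called, with Crh at 0.26, Crhbp at 0.18, Crhr1 at -0.0040 and Mc4r at -0.21. Median counts over all 84 libraries were 19.5 for Crh, 37 for Mc4r, 82 for Crhbp and 362 for Crhr1. In the other 25 comparisons 0 of 475 estimates of the other response genes, 0 of 300 of the machinery and 0 of 200 of the stress axis were called by edgeR, and DESeq2 called 0 of each. Of the same estimates, 34 (7.16%), 16 (5.33%) and 5 (2.50%) had an unadjusted p below the threshold of 0.05, against 4.02% over all genes.

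**Figure D5:**
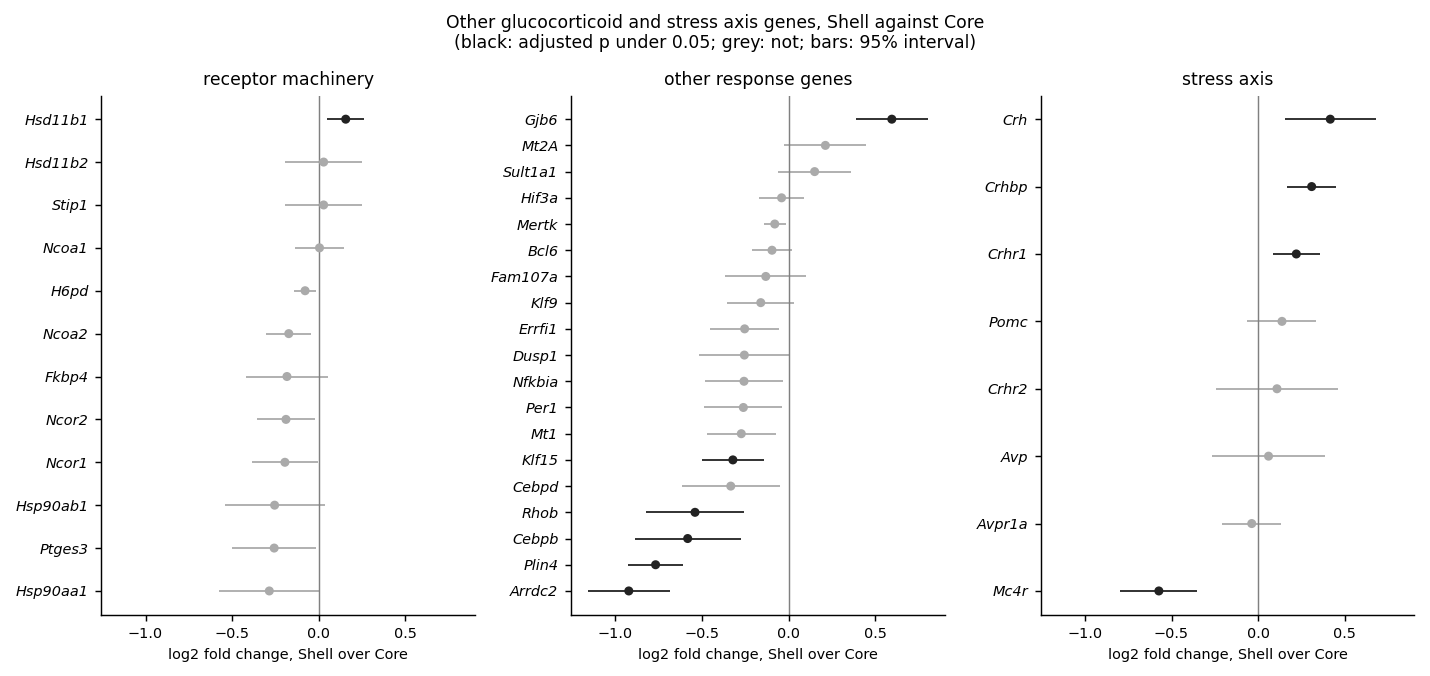
Log2 fold change of Shell over Core (horizontal axis, bars are 95% intervals) for the genes of the receptor machinery, other response genes and the stress axis, with called genes in black and the others in grey. Arrdc2 at -0.92 and Plin4 at -0.77 lie furthest to the left, and Gjb6 at 0.60 furthest to the right.

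Across libraries, the genes most like each member were sought by Pearson's r of log2 CPM over 83 libraries, after group means, series and background level were removed, among 15241 genes. The receptor gene Nr3c1 varied most closely with Nipbl (0.89), Pds5a (0.88) and Fnip1 (0.87), and Nr3c2 with Pan3 (0.81), Mllt3 (0.81) and Zcchc7 (0.79). The nearest to Tsc22d3 were the myelin genes Mog (0.78) and Cldn11 (0.77) and Mettl7a (0.76). Those of Fkbp5 were Sun2 (0.64), Ccdc22 (0.63) and Ggcx (0.61), and those of Sgk1 were Pdzd2 (0.64), Smad3 (0.64) and Mrtfa (0.62).

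Response genes appeared among each other's neighbours in some cases. Pdk4 was nearest to Gpatch4 (0.57), the NF-kappaB inhibitor gene Nfkbia (0.56) and Tsc22d3 (0.50), Zbtb16 to Hif3a (0.66), Adam19 (0.48) and Ubac2 (0.47), and Ddit4 to Sephs2 (0.72), Ralgds (0.71) and Arrdc2 (0.71). Cdkn1a was nearest to Spsb1 (0.71), Rxra (0.63) and Rps6ka1 (0.61). Nfkbia, Hif3a and Arrdc2 are on the list of other response genes. Among the members themselves, r was 0.68 between Nr3c1 and Nr3c2, 0.52 between Tsc22d3 and Ddit4 and 0.50 between Tsc22d3 and Pdk4, and -0.46 between Nr3c1 and Zbtb16. All other pairs lay between -0.37 (Nr3c2 and Zbtb16) and 0.38 (Zbtb16 and Cdkn1a). Fkbp5 reached at most 0.24 with any other member (Ddit4). These values describe co-variation in the same libraries and carry no test.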

How the data were processed

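Per the labels' protocols, accumbens RNA was purified with a Direct-zol kit, and a SMARTer Pico kit made stranded libraries from total RNA. Per the submitters' processing notes, featureCounts and build mRatBN7.2 were used, and the deposited counts are the authors' whole reads per gene. No source used here gives the aligner, annotation or strand setting, so reads of overlapping or antisense genes cannot be told apart. The deposited FPKM values imply 1 length per gene in all libraries, for all 41807 genes with a count (tolerance 1%), and were used only to compare genes.

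Counts were scaled by TMM, filtered by filterByExpr and tested in edgeR 4.0.16 (R 4.3.3). The 42 libraries of each subregion (31370 genes in Core, 30911 in Shell) were fitted with series as a covariate. For Shell against Core all 84 were fitted, and the covariate there was only series F against the numbered series. Log2 CPM used a prior count of 2. Calls are at an adjusted p of 0.05 and intervals are 95%. DESeq2 1.42.0, other filters and scalings and left-out libraries were alternatives. The scripts were tested on simulated counts. Of all identifiers, 29367 matched RefSeq symbols. The members and lists were chosen with earlier results of these data known. All members are named, as are list genes past the threshold, and, for likeness, the 3 genes of highest r.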

Additional observations from a re-analysis of the deposited data

Results flagged for a closer look

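In 108 combinations of gene and group, the highest or lowest library was compared with the rest of its group by its gap to the nearest one over the range (Dixon's test), a test that chance meets in about 1 in 20 groups. It picked out 4 values. Library 17-F of Core Ctx_Coc had Ddit4 at 0.26 log2 CPM, against a group median of 3.58. It also has the highest background level of all libraries, 4395 CPM. Library 12-F of Shell Ext_Sal had Ddit4 at 2.47, against 3.61, and the highest background level in Shell, 2397 CPM. Library 3-F of Core Ext_Sal had Cdkn1a at 1.67, against 2.37. Library 4-14 of Shell Ctx_Coc had Nr3c1 at 6.40, the highest of a group with a median of 6.16.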

How the results depend on the processing

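The 8 lower calls of Shell against Core held with DESeq2, without the low-count filter, the series covariate or series F, without 17-F, without both 17-F and 12-F, and in the replicate block. With the background covariate, with it but without 17-F, with it in the replicate block, and between Shell series 4 and Core series 2, 1 member was called higher. Series F alone called 0 members lower, without 17-F 1, and with the covariate too 1 lower and 1 higher. Nr3c1 was at 0.081 in that last fit, and Nr3c2 at -0.014 in series F and at -0.081 there without 17-F. Hsd11b1 turned to -0.011 in the block with the covariate and, between the matched series, to -0.024, as did Crhr1 to -0.0040. Nr3c1 in the drug average was -0.0012 in Shell with the covariate, and in Core -0.0072 with it, -0.0033 with it and without 17-F, and -0.10 without series F.

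Over all genes, 1465 were called higher and 2818 lower in Shell. There were 9488 higher and 3796 lower with the covariate, 9161 higher and 4973 lower with it and without 17-F, 4055 higher and 4399 lower without 17-F, and 2946 higher and 3635 lower without 17-F and 12-F. Series F gave 17 higher and 59 lower, without 17-F 298 and 416, and with the covariate too 2102 and 435. Without series F 880 were higher and 2263 lower, and the matched series gave 5875 higher and 5236 lower. The median over all genes moved to 0.26 in series F and 0.40 there without 17-F. DESeq2 called 3 genes in Core and 1 in Shell for the drug, 1 for the drug difference between subregions and 3 between Shell conditions, and the covariate 1 in Core for the drug, where edgeR called 0. The cause was not tested.

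Shared numbers of series 1 with 3 and 2 with 4 do not pair the samples by the labels. Over 1000 genes the correlation of same-numbered libraries was -0.04 to 0.63 over 30 pairs (median 0.27, other pairings -0.01), above 0.1 in 25, and 15 libraries correlated best with their own number. The replicate block called 1390 genes higher and 2146 lower, and with the covariate 6912 and 5856. A median of 67.5 Pdk4 and 66.5 Cdkn1a counts in Shell limits their precision, and intervals cover the spread between libraries only.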
